A study of Mus musculus with 13 samples.

Results

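The 37 genes described here encode enzymes that make cholesterol and fatty acids, the proteins that control those enzymes, and proteins that move, store or export the lipids. They were chosen by gene symbol, and all 37 were found among the 24417 named genes of both count tables. By role, 7 act from acetyl-CoA to farnesyl diphosphate and 11 from squalene to cholesterol, and these 18 are called the sterol steps. A further 5 regulate the pathway and 8 make, elongate or desaturate fatty acids. Another 3 act in sterol transport, esterification and lipid droplet storage, 2 are efflux pumps, and *Lpcat3* remodels phospholipids.

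Cells make cholesterol from acetyl-CoA through mevalonate and squalene, or take it up with lipoproteins. When sterol in the membrane of the endoplasmic reticulum is low, SCAP escorts SREBP transcription factors to the Golgi, where they are cleaved and then activate synthesis genes, while INSIG proteins retain them when sterol is plentiful. Surplus sterol is esterified and stored in lipid droplets coated by perilipins, and oxysterols activate the LXR receptors, which raise the transcription of the pumps ABCA1 and ABCG1. T cells that divide need new membrane, and mevalonate metabolism is known to matter for the function of regulatory T (Treg) cells.

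RNA was sequenced from T cells sorted from pooled spleen and lymph nodes of C57BL/6 mice, in 8 male and 5 female libraries. The study asked how Treg cells that regain Foxp3 in diseased mice differ from healthy ones, and how cells that report *Foxp3* transcription without making the protein, called Treg “wannabes”, respond to activation. The male mice were analysed at day 21, after 4-hydroxytamoxifen given once at postnatal day 14. Control Treg cells (n = 3) came from healthy Foxp3DTR-GFP/y Cd4creERT2 mice, rescued Treg cells (n = 3) from Foxp3LSL/y Cd4creERT2 mice and male wannabes (n = 2) from Foxp3LSL/y Cd4wt mice. The LSL allele carries a Thy1.1 reporter and a STOP cassette between loxP sites, and 4-hydroxytamoxifen activates the Cre recombinase that removes them. Mice without the recombinase stay without Foxp3 protein and are diseased. The Cre is driven from *Cd4*, so it is not limited to Treg cells. The females were 9 to 11 weeks old and all received diphtheria toxin, first 7 days and last 1 day before analysis. Resting wannabes (n = 3) came from Foxp3LSL/WT Cd4wt females, whose wild-type Treg cells survive the toxin, and activated wannabes (n = 2) from Foxp3LSL/DTR Cd4wt females, whose other Treg cells carry the toxin receptor and are killed. Control and rescued cells thus differ in *Foxp3* allele as well as in disease, and activated and resting cells in allele as well as in activation. Male wannabes differ from both Treg groups in *Cd4* Cre genotype as well as in Foxp3 protein, and from control Treg cells also in *Foxp3* allele and disease. The experiments differ in sex, age and drug, so these cannot be told apart.

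The deposited values are read counts per gene. Total counts per library lay between 25558402 and 36660933, and the 37 genes together held between 0.237% and 0.354% of them. Normalized counts below are counts scaled by edgeR's TMM library size within each experiment, so levels are compared within an experiment only. A gene is called higher or lower at an adjusted p under 0.05 from edgeR's quasi-likelihood test, adjusted over all genes tested. The p-values measure the spread between these libraries, which the study counts as biological replicates. In every library all 5 T cell markers (*Cd3e*, *Cd3d*, *Cd3g*, *Cd4* and *Cd28*) were present, with summed normalized counts between 85714 and 133051. The 8 myeloid markers together had between 42.1 and 439 normalized counts per library, and *Cd14*, *S100a8* and *S100a9* were at 0 in all libraries of male wannabes and of activated wannabes. Sums of the 3 B cell markers lay between 287 and 1444, of the 4 CD8 T and NK cell markers between 365 and 1136, and of the 4 erythroid markers found between 29.4 and 544. *Foxp3* transcripts were counted in every library, wannabes included, with 5479, 7061 and 8264 normalized counts in control Treg cells, 28381, 29816 and 36405 in rescued Treg cells and 2762 and 3273 in male wannabes. *Foxp3* is 1 of 4 Treg markers, with *Il2ra*, *Ikzf2* and *Ctla4*. From control to rescued Treg cells 2 of the 4 were positive and 2 negative, with log2 fold changes between −0.48 and 2.18 (median −0.02). edgeR called 1 of the 4 higher and 0 lower, against 1.43% and 0.864% of all genes.

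Most of the pathway was expressed in all 5 groups. Per kilobase of exon, *Acly*, which makes cytosolic acetyl-CoA from citrate, had the highest mean of the 37 genes in every group. It lay between 2327 (control Treg cells) and 3093 (male wannabes) normalized counts per kilobase in the male experiment. In the female experiment it had 2288 in resting and 2099 in activated wannabes. In Treg cells *Srebf2*, the SREBP gene that serves sterol synthesis, came next with 1779.7 in control and 1948 in rescued Treg cells. *Lpcat3* had 1544 per kilobase in control Treg cells and *Ebp*, the sterol isomerase, 1223. At the other end *Acaca*, the acetyl-CoA carboxylase that commits carbon to fatty acids, had between 25.6 and 37.1 per kilobase in the male groups. In the female groups it had 21.3 and 20.5. *Scd1* did not pass 10.6 in any group. Its neighbour *Scd2*, also a stearoyl-CoA desaturase, had between 858 and 2237 in the male groups and 538 and 692 in the female groups. Of the pumps, *Abcg1* had more counts per kilobase than *Abca1* in each group, 692 against 114 in control Treg cells and 172 against 8.58 in activated wannabes.

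Between rescued and control Treg cells edgeR called the exporter *Abca1* higher and none of the synthesis genes, of which DESeq2 called *Ebp* higher and *Tm7sf2* lower. *Abca1* encodes the pump that hands cholesterol and phospholipid to apolipoproteins outside the cell, and it lies on chromosome 4 from 53030787 to 53159895 of GRCm38 (GENCODE M21). Control libraries held 779, 1301 and 1475 normalized counts, male wannabes 1771 and 2279, and rescued libraries 3939.9, 3231 and 3104. Every rescued library was above every wannabe library, and every wannabe library above every control library. *Abca1* rose from 1185 ± 362 (SD, n = 3) to 3425 ± 450.3 (SD, n = 3), a 2.89-fold difference (log2 fold change 1.53, standard error 0.25, edgeR adjusted p = 0.0108). It was called in all 8 fits that left out 1 male library, at values between 1.30 and 1.72. The myeloid markers, which belong to cells that also express this pump, overlapped between these groups in their sums, with 343, 169 and 380.3 normalized counts in control and 439, 179 and 275 in rescued libraries. Of the 8 markers, *Cd68* did not overlap, with 7.51, 22.8 and 22.6 in control and 162, 101 and 168 in rescued libraries (log2 fold change 3.01, edgeR adjusted p = 0.0887, DESeq2 adjusted p = 0.00255). *Itgam*, the most abundant of the 8 in control libraries, had 332, 108 and 341 in control and 201, 53.1 and 61.5 in rescued libraries, and 5, 2 and 4 of the 8 markers were at 0 in the control and 3, 4 and 0 in the rescued libraries. Of the 5 myeloid markers tested 4 were positive, with a median log2 fold change of 1.45 and values up to 4.43, and of the 4 CD8 T and NK cell markers all 4, with a median of 1.86. The summed CD8 T and NK cell markers had 848, 580.0 and 443 normalized counts in control and 755, 864 and 680.4 in rescued libraries, which overlapped, with *Cd8b1* the most abundant. The summed B cell markers had 1123, 1189 and 1048 in control and 1250.0, 1373 and 1379 in rescued libraries, which did not overlap, and *Cd79b*, the most abundant, was at 0.36 (edgeR adjusted p = 0.480). edgeR called 0 of the myeloid and CD8 T and NK cell markers, with 1 myeloid and 2 CD8 T and NK cell markers at an unadjusted p under 0.05 and the same numbers by DESeq2. Their part in the result was not tested. The study's methods describe a sort for TCRβ+ CD4+ cells without CD8 or NK1.1, which is meant to remove CD8 T, NK and myeloid cells. In bulk RNA, more cells of a type and more RNA per cell cannot be told apart.

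Of the 36 genes tested here, *Abca1* was the 1 called higher, where 1.43% of all 14925 genes tested were called higher. edgeR called 0 of the 36 lower, against 0.864% of all genes. At an unadjusted p under 0.05 there were 2 higher (*Abca1* and *Ebp*) and 3 lower (*Fdps*, *Tm7sf2* and *Soat1*), and DESeq2 called 2 higher and 1 lower. The added DESeq2 calls were *Ebp* (log2 fold change 0.55, DESeq2 adjusted p = 0.0193) and *Tm7sf2* (−1.35, 0.0270). Libraries did not overlap for 4 genes that were higher (*Abca1*, *Ebp*, *Nsdhl* and *Stard4*), against 12.6% of all genes, and for 2 that were lower (*Tm7sf2* and *Soat1*), against 11.6%. *Fads2* was not tested in the male libraries for its low counts, with 5.36, 0.91 and 0 normalized counts in control, 0 and 0 in wannabe and 19.8, 1.3 and 0 in rescued libraries.

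The other genes of efflux and storage did not pass the test between rescued and control Treg cells. *Abcg1*, the pump that loads cholesterol onto lipoprotein particles, had 4652, 4930.3 and 5560.5 normalized counts in control and 6128, 6089 and 5048 in rescued libraries, which overlapped (log2 fold change 0.19, edgeR adjusted p = 0.735). *Plin2*, the perilipin that coats lipid droplets, had 1726, 909 and 1379.5 in control and 767, 1804 and 2691 in rescued libraries. The rescued libraries held both the lowest and the highest of these 6 values, and the log2 fold change was 0.39 (standard error 0.39, edgeR adjusted p = 0.715). *Soat1*, which esterifies cholesterol for storage, had 3299, 2729.6 and 2806 in control and 1773, 2119 and 2313 in rescued libraries. Each rescued value was below each control value, at a log2 fold change of −0.51 (standard error 0.18, edgeR adjusted p = 0.186). *Stard4*, a carrier of cholesterol between membranes, had 1244, 1326 and 1062 and 1696, 1538 and 1717, with all rescued libraries above all control libraries (log2 fold change 0.45, edgeR adjusted p = 0.374).

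The 18 sterol steps had a median log2 fold change of −0.31 from control to rescued Treg cells, where the median of all genes tested was −0.03. Of the 18, 14 had a negative and 4 a positive value, and 47.8% of all genes had a positive one. Many of the 18 were high or low in the same libraries, as described below, so these signs are not independent. Relative to the group mean, their medians were 0.39, 0.09 and −0.53 in control replicates 1, 2 and 3. edgeR called 0 of the 18, 3 had an unadjusted p under 0.05, and DESeq2 called 2. The most negative was *Tm7sf2*, a sterol reductase, with 326, 389 and 359 normalized counts in control and 197, 150.3 and 68.9 in rescued libraries. These values did not overlap, and the log2 fold change was −1.36 (standard error 0.42, edgeR adjusted p = 0.126). *Tm7sf2* shares 532 exonic bases with *Vps51* on the same strand, so its counts may hold reads of that gene. The same holds for *Fdps*, which shares 1124 exonic bases with *Gm43738* on the same strand. On opposite strands *Fdft1* shares 774 with *Ctsb*, *Lpcat3* 334 with *Emg1*, *Cyp51* 166 with *Akap9* and *Srebf1* 109 with *Rai1*, and the strand setting of the counting was not given. *Ebp* was the most positive, with 2893, 2894 and 2687 in control and 4372, 3887 and 3999 in rescued libraries, again without overlap (log2 fold change 0.53, standard error 0.16, edgeR adjusted p = 0.122). *Sqle*, the squalene epoxidase that is a control point of the pathway, had 3218, 1933 and 1382 in control and 1959.6, 868 and 667 in rescued libraries, which overlapped (log2 fold change −0.90, edgeR adjusted p = 0.341, and −0.97 and 0.0276 with a replicate block). *Hmgcs1*, the synthase that commits acetyl units to mevalonate, had 3294, 2406 and 1623 and 2800.5, 1847 and 1449.9, and these overlapped too (log2 fold change −0.26).

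The regulators lay near 0 in the same comparison and the fatty acid genes on both sides of it. The 5 regulators had log2 fold changes between −0.25 (*Insig2*) and 0.21 (*Srebf1*), and all 5 overlapped between the groups. *Srebf1*, which serves fatty acid synthesis, had 3651, 4033 and 2634 normalized counts in control, 5086, 3088 and 3716 in rescued and 4934 and 5129 in wannabe libraries. *Srebf2* had 13822, 14723 and 9811 in control, 16443, 11964 and 13581 in rescued and 15940.4 and 12953 in wannabe libraries. The 7 fatty acid genes tested had a median of −0.03 and values between −0.53 (*Acaca*) and 0.78 (*Scd1*), and all 7 overlapped. *Fasn*, the fatty acid synthase, had 3843, 4320.1 and 3399 normalized counts in control and 3434, 3721 and 4091 in rescued libraries (log2 fold change −0.04, standard error 0.15). *Scd1* had 11.8, 12.8 and 11.3 in control, 33.1, 16.9 and 11.9 in rescued and 37.6 and 65.7 in wannabe libraries. *Lpcat3* was at 0.04 on the log2 scale.

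Genes around the pathway were counted in lists that hold none of the 37. Of 13 other synthesis and SREBP pathway genes, 11 of 12 genes of lipoprotein and fatty acid uptake and lysosomal release that were tested, 6 of 7 of the LXR and oxysterol pathway, 6 of triglyceride storage and breakdown and 10 of fatty acid oxidation, edgeR called 0 between rescued and control Treg cells. At an unadjusted p under 0.05 the counts were 2, 2, 0, 3 and 3 in that order, where 2403 of all 14925 genes passed. Their median log2 fold changes were 0.11, 0.24, 0.01, −0.54 and 0.13. DESeq2 called 1, 0, 0, 2 and 2, and 1195 of all genes. Of the 6 triglyceride genes, 2 were higher and 3 lower without overlap between libraries, where 12.6% and 11.6% of all genes were. The smallest p among them was that of *Lipe*, hormone-sensitive lipase, at −0.91 (edgeR adjusted p = 0.0839), and the lowest value that of *Mgll*, which cleaves monoglycerides, at −1.65 (edgeR adjusted p = 0.218). The 9 proliferation markers had a median of 0.71 and all 9 were positive, yet their libraries overlapped and edgeR called 0, with 3 at an unadjusted p under 0.05 and 0 by DESeq2.

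**Figure D1:**
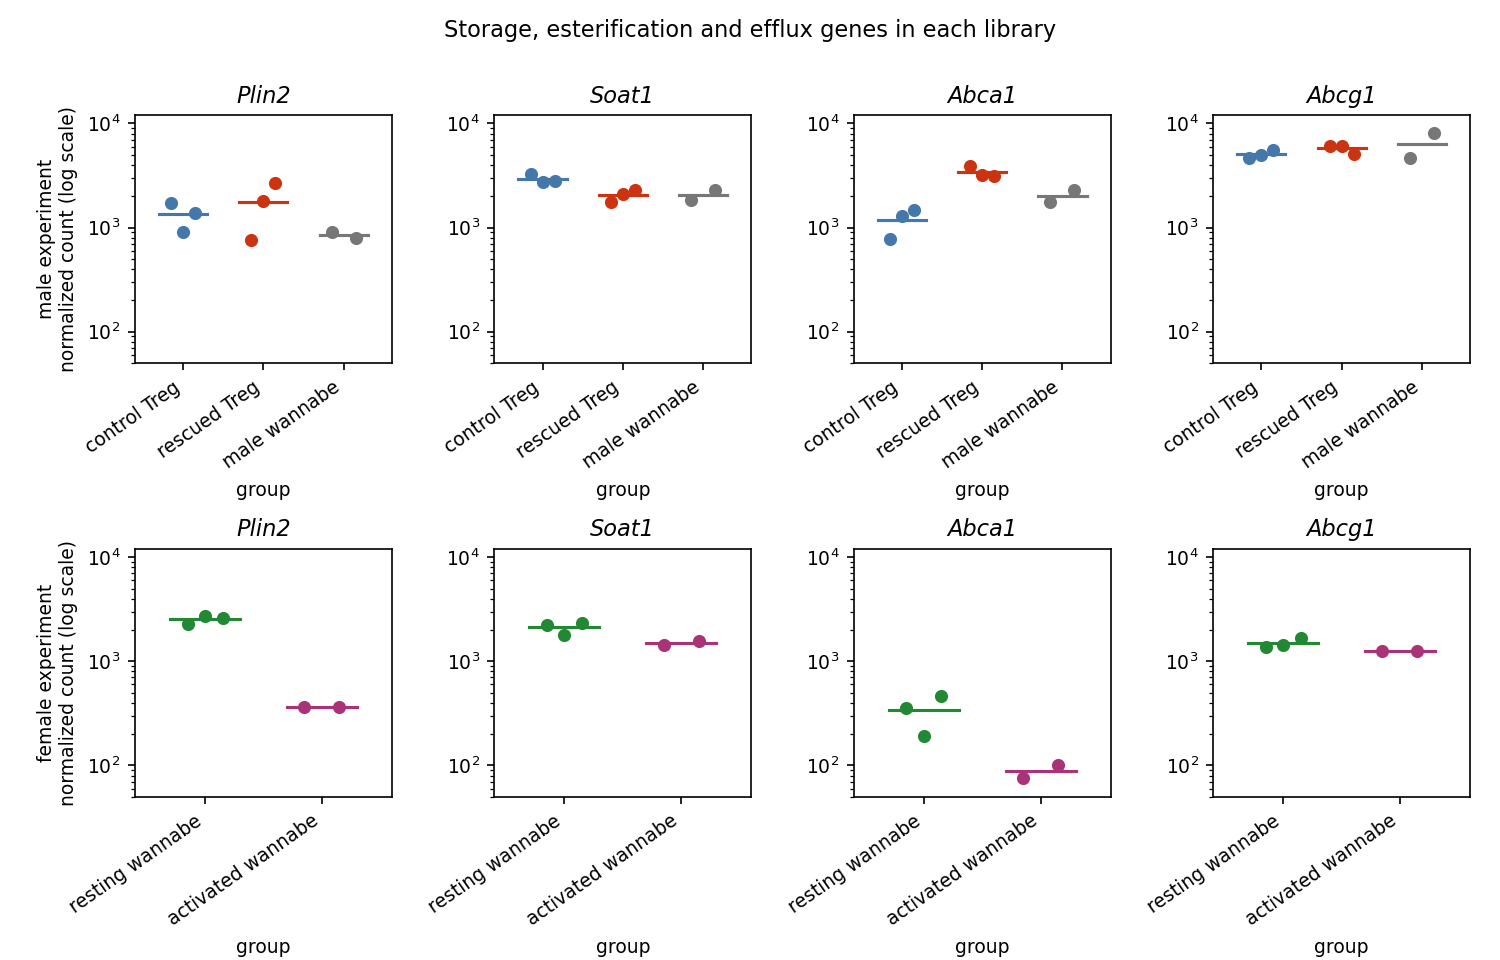
Normalized counts on a log scale for *Plin2*, *Soat1*, *Abca1* and *Abcg1* in each library, with points for libraries, lines for group means, and the male and female experiments in separate panels. Among the male groups *Abca1* is highest in rescued Treg cells, where the lowest of 3 libraries held 3104, and in the female experiment *Plin2* is lower in activated wannabes, at 361 and 368.

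Against male wannabes, both Treg populations had lower *Scd2*, *Fasn* and *Acat2* and higher *Insig1*. These comparisons share the same 2 wannabe libraries, so their values are given side by side and are not independent. *Scd2*, on chromosome 19 from 44293674 to 44306864, had 13279 and 11172 normalized counts in wannabes, 5101, 4729.6 and 4234 in control and 7249, 5990.4 and 3704 in rescued Treg cells. Each Treg library was below each wannabe library. *Scd2* fell by 1.38 on the log2 scale in control (standard error 0.24, edgeR adjusted p = 0.00376) and by 1.11 in rescued Treg cells (standard error 0.24, edgeR adjusted p = 0.0102). *Fasn*, on chromosome 11 from 120805846 to 120824547, had 6407 and 7112 in wannabes, above all control and rescued values given earlier. Its log2 fold changes were −0.81 in control (standard error 0.17, edgeR adjusted p = 0.00866) and −0.85 in rescued Treg cells (standard error 0.17, edgeR adjusted p = 0.00660). Both genes were called in both comparisons whichever 1 male library was left out.

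*Acat2* encodes the cytosolic thiolase that joins acetyl-CoA units at the start of the mevalonate route, and lies on chromosome 17 from 12942890 to 12960747. It had 2528 and 3097 normalized counts in wannabes, 1867, 1385 and 1373 in control and 1601, 1415 and 1390.2 in rescued Treg cells, without overlap between wannabes and either. The log2 fold changes were −0.87 in control (standard error 0.21, edgeR adjusted p = 0.0194) and −0.94 in rescued Treg cells (standard error 0.21, edgeR adjusted p = 0.0139). The control value was not called by edgeR without control replicate 2 (−0.79, adjusted p = 0.0700), control replicate 3 (−0.79, adjusted p = 0.0710) or wannabe replicate 2 (−0.76, adjusted p = 0.0794). The rescued value was not called by edgeR without wannabe replicate 2 (−0.83, adjusted p = 0.0651) or rescued replicate 2 (−0.86, adjusted p = 0.0605). *Acat3*, a close copy beside *Acat2*, had 3555 and 3121 in wannabes, 2294, 1762 and 2042 in control and 2238, 2092 and 1870.4 in rescued Treg cells, again without overlap. Reads of these copies may have been assigned to either, so which of them differed is uncertain.

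*Insig1*, whose protein retains SREBP and whose transcription SREBP itself raises, lies on chromosome 5 from 28071363 to 28078662. It had 193 and 134 normalized counts in wannabes, 1165, 1130.0 and 415 in control and 1848, 516 and 579 in rescued Treg cells. Each Treg library was above both wannabe libraries, while within each Treg group the highest library held at least 2.81 times the lowest. The log2 fold changes were 2.47 in control (standard error 0.63, edgeR adjusted p = 0.0229) and 2.59 in rescued Treg cells (standard error 0.64, edgeR adjusted p = 0.0200). The control call was lost in edgeR without control replicate 1 (2.24, adjusted p = 0.0680), control replicate 2 (2.28, adjusted p = 0.0596), wannabe replicate 1 (2.75, adjusted p = 0.0565) or wannabe replicate 2 (2.18, adjusted p = 0.116). The rescued call was lost in edgeR without wannabe replicate 1 (2.87, adjusted p = 0.0542) or wannabe replicate 2 (2.31, adjusted p = 0.109), and without rescued replicate 1 the value was 1.75 and was still called (adjusted p = 0.0449). *Insig2*, its relative, had 1314 and 1465 in wannabes, 1825, 1431 and 1304 in control and 1336, 1126 and 1358 in rescued Treg cells, so the groups overlapped.

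Counted over the 36 genes tested, 1 was higher and 3 were lower in rescued Treg cells than in wannabes, where 10.0% of all genes were higher and 4.06% lower. In control Treg cells 1 was higher and 3 were lower, where 9.92% of all genes were higher and 6.27% lower. The median log2 fold change of the 36 was −0.15 in rescued and 0.03 in control Treg cells, beside 0.00 and 0.09 for all genes. *Abca1* was not called in either, at −0.77 in control (edgeR adjusted p = 0.0707) and 0.76 in rescued Treg cells (edgeR adjusted p = 0.0938), and DESeq2 called both (adjusted p = 0.0245 and 0.0490). *Abcg1*, with 4681 and 8021 normalized counts in wannabes, and *Plin2*, with 908 and 799, were not called in either comparison. The proliferation markers were highest in a wannabe library, with summed normalized counts of 92513 and 48396 there, 29396, 18236 and 36000.2 in control and 50562, 31372 and 34619 in rescued Treg cells. All 9 were above 0 in each library, *Mcm5*, *Mcm2* or *Rrm2* was the most abundant, and edgeR called 6 of the 9 lower in control and 2 of the 9 lower in rescued Treg cells. Of these, *Mcm2* and *Mcm5* in control and *Mcm2* in rescued Treg cells were called in all 8 fits that left out 1 library, and the others lost their calls in at least 2 of these fits. Their part in the result was not tested.

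Other cell type markers differed from wannabes as well. Of the 5 T cell markers *Cd4* was lower in control (−1.51, edgeR adjusted p = 0.000456) and in rescued Treg cells (−1.27, edgeR adjusted p = 0.000589), in all 8 fits that left out 1 library. Both Treg groups carry the Cd4creERT2 allele and male wannabes do not, so for *Cd4* cell type and genotype cannot be told apart. In control Treg cells edgeR also called *Cd28* (0.64) and the myeloid marker *Itgam* (4.03) higher and *Klrb1c* of the CD8 T and NK cell markers (−2.85) and the erythroid *Hba-a1* (−3.17) lower. These 4 were called in 5, 5, 5 and 2 of the 8 fits that left out 1 library. Myeloid sums were 83.6 and 219 normalized counts in wannabes, CD8 T and NK cell sums 747 and 1136, and erythroid sums 423 and 112, beside 229, 80.3 and 107 in control and 66.1, 268 and 155 in rescued libraries. Of the 4 Treg markers edgeR called 4 higher in control (median 0.99) and 3 higher in rescued Treg cells (median 0.98). Of all genes, 9.92% and 10.0% were called higher in these comparisons. The part of all these markers in the results was not tested.

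The neighbouring lists of synthesis, uptake, LXR, triglyceride and oxidation genes, in that order, had 13, 11, 6, 6 and 10 genes tested against wannabes. In control Treg cells edgeR called 0, 1, 1, 1 and 1 higher and 2, 2, 0, 0 and 0 lower. Of all genes, 9.92% were higher and 6.27% lower. The list medians were 0.02, −0.04, 0.30, −0.15 and −0.34. Among these lists, *Fabp5*, a fatty acid carrier, had 2219 and 2152 normalized counts in wannabes, 797, 628 and 842 in control and 1054, 946 and 673 in rescued Treg cells. It was lower than in wannabes in control (−1.53, edgeR adjusted p = 0.00294) and in rescued Treg cells (−1.29, edgeR adjusted p = 0.00607). *Osbpl8*, an oxysterol-binding protein, was higher in both (1.40 and 1.29), and these calls held with any 1 library left out. In control Treg cells *Dgat2*, which makes triglyceride, was also higher (3.91) in every such fit, at 2.97 without wannabe replicate 1 and 7.04 without wannabe replicate 2. The fatty acid transporter *Slc27a4* and *Acadl*, of fatty acid oxidation, were higher there (1.45 and 0.83), and the sterol reductase *Lbr*, *Mid1ip1* and the lipoprotein receptor *Scarb1* were lower (−0.58, −0.91 and −1.02). Each of these 5 was lost in edgeR in some fits that left out 1 library. Without wannabe replicate 1, *Lbr* and *Scarb1* had adjusted p = 0.197 and 0.141 in edgeR, and without wannabe replicate 2 the other 3 and *Scarb1* had between 0.0652 (*Scarb1*) and 0.196 (*Slc27a4*). Without control replicates 1, 2 or 3 in turn, edgeR lost 4, 4 and 3 of the 5 (adjusted p between 0.0682 and 0.128), and without rescued replicates 1, 2 or 3 it lost 2, 4 and 2 (adjusted p between 0.0508 and 0.0751).

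In rescued Treg cells edgeR called 1, 1, 3, 2 and 1 genes of the same lists, in the same order, higher than in wannabes and 0, 1, 0, 2 and 0 lower. Of all genes, 10.0% were higher and 4.06% lower. The list medians were −0.01, −0.13, 0.44, −0.59 and −0.06. *Dgat1* (1.61) and *Acadl* (1.55) were higher in rescued Treg cells than in wannabes in every fit that left out 1 library. *Slc27a4*, *Dgat2*, *Acss2*, which makes acetyl-CoA from acetate, *Mylip*, an LXR target, and *Osbpl3* were higher as well (1.63, 3.12, 0.79, 1.01 and 0.81), and *Plin3*, another perilipin, and *Lipe* lower (−0.87 and −1.08). In edgeR, *Acss2*, *Mylip* and *Osbpl3* lost their calls without wannabe replicate 1 (adjusted p = 0.103, 0.0915 and 0.0605). *Slc27a4*, *Osbpl3*, *Plin3* and *Lipe* lost theirs in edgeR without wannabe replicate 2 (adjusted p = 0.142, 0.0562, 0.0529 and 0.109). Without rescued replicate 1, edgeR lost *Acss2* and *Slc27a4* (adjusted p = 0.0658 and 0.0719). Without rescued replicate 2 it lost *Mylip*, *Dgat2* and *Lipe* (edgeR adjusted p = 0.0516, 0.0740 and 0.0756), and without rescued replicate 3 *Slc27a4*, *Dgat2* and *Lipe* (edgeR adjusted p = 0.0503, 0.0617 and 0.0603). *Dgat2* was also lost without control replicate 1 (edgeR adjusted p = 0.0527), and was at 2.19 without wannabe replicate 1 and 6.25 without wannabe replicate 2.

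In activated wannabes edgeR called *Plin2* and *Soat1* of 3 transport and storage genes and *Abca1* of 2 efflux genes lower, and 3 of 8 fatty acid genes and *Acat2* of 18 sterol steps higher. Of all 13166 genes tested, 11.2% were called lower and 11.3% higher. *Plin2*, on chromosome 4 from 86648386 to 86670060, had 2297, 2738 and 2611 normalized counts in resting and 368 and 361 in activated wannabes. The groups stood far apart, with little spread inside either. *Plin2* fell from 2549 ± 227 (SD, n = 3) to 364 ± 4.8 (SD, n = 2), a 6.99-fold difference (log2 fold change −2.81, standard error 0.12, edgeR adjusted p = 0.000249). It was called whichever 1 of the 5 libraries was left out.

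*Abca1* had 354, 192 and 468 normalized counts in resting and 76.5 and 101 in activated wannabes. All activated values were below all resting values, and the resting libraries varied 2.44-fold. *Abca1* fell from 338 ± 139 (SD, n = 3) to 88.9 ± 17.4 (SD, n = 2) (log2 fold change −1.93, standard error 0.41, edgeR adjusted p = 0.0199). It was not called by edgeR without activated replicate 1 (−1.74, adjusted p = 0.144) or activated replicate 2 (−2.15, adjusted p = 0.106). *Abcg1* had 1367, 1440.1 and 1662 and 1248 and 1261, with activated values just below the lowest resting value (log2 fold change −0.25, edgeR adjusted p = 0.162). *Soat1* had 2218, 1808 and 2314 in resting and 1442 and 1550.3 in activated wannabes, without overlap, and fell from 2113 ± 269 (SD, n = 3) to 1496 ± 76.5 (SD, n = 2) (log2 fold change −0.50, standard error 0.13, edgeR adjusted p = 0.0365). Its call was lost in edgeR without resting replicate 1 (−0.45, adjusted p = 0.0818), resting replicate 3 (−0.43, adjusted p = 0.0768), activated replicate 1 (−0.45, adjusted p = 0.216) or activated replicate 2 (−0.56, adjusted p = 0.157), and also with no filter on low counts (adjusted p = 0.0510) and with a replicate block (adjusted p = 0.101).

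Of the fatty acid genes, edgeR called *Fads2*, *Elovl6* and *Fasn* higher in activated wannabes. *Fads2*, the delta-6 desaturase of polyunsaturated fatty acids on chromosome 19 from 10062765 to 10101746, had 4.21, 0 and 3.12 normalized counts in resting and 108 and 129 in activated wannabes. It was close to absent in resting cells and present in both activated libraries, at a log2 fold change of 5.54 (standard error 0.67, edgeR adjusted p = 0.00288). The size of this fitted value rests on a handful of resting reads, and without resting replicate 1 it was 6.16, without resting replicate 2 it was 4.97, while the call held in all 5 fits that left out 1 library. *Fasn* had 3114, 2832 and 2938 in resting and 4544 and 4044 in activated wannabes, without overlap. It was higher by 0.54 in log2 units (standard error 0.09, edgeR adjusted p = 0.00846), and was not called by edgeR without activated replicate 1 (0.45, adjusted p = 0.0976). *Elovl6*, which elongates palmitate, had 333, 264 and 382 and 523 and 652, also without overlap. It rose by 0.85 (standard error 0.20, edgeR adjusted p = 0.0277), and was not called by edgeR without resting replicate 1 (0.87, adjusted p = 0.0554), activated replicate 1 (0.99, adjusted p = 0.0935) or activated replicate 2 (0.67, adjusted p = 0.206).

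The other 5 fatty acid genes were not called. *Scd2* had 3042, 3000.5 and 2777 normalized counts in resting and 3359.8 and 4200.4 in activated wannabes, without overlap, at a log2 fold change of 0.36 (edgeR adjusted p = 0.0621), and DESeq2 called it (adjusted p = 0.0352). *Scd1* had 9.47, 5.1 and 7.27 in resting and 28.4 and 16.2 in activated wannabes, low counts that did not overlap (log2 fold change 1.60, standard error 0.56, edgeR adjusted p = 0.0864). *Scd1* and *Scd2* are neighbouring copies on chromosome 19, so reads shared between them may be misplaced. *Acly*, *Acaca* and *Fads1* had log2 fold changes of −0.12, −0.05 and 0.18. The 8 genes had a median of 0.45, beside −0.01 for all genes tested.

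Among the 18 sterol steps edgeR called *Acat2* alone, higher, with 1809, 1887 and 1793 normalized counts in resting and 2421 and 2437 in activated wannabes. These did not overlap, and *Acat2* was higher by 0.41 in log2 units (standard error 0.08, edgeR adjusted p = 0.0158). It was not called by edgeR without activated replicate 1 (0.41, adjusted p = 0.112) or activated replicate 2 (0.39, adjusted p = 0.127), nor with a replicate block (adjusted p = 0.0683). *Acat3*, at 1888, 1917 and 1944 and 2207 and 2279, had a log2 fold change of 0.23 (edgeR adjusted p = 0.0860). The 18 genes had a median of 0.20, with 12 positive and 6 negative values, and 49.4% of all genes had a positive one. Here too many of the 18 were high or low in the same libraries, so these signs are not independent. *Dhcr7*, the last step of the pathway to cholesterol, had 1356, 793 and 765 in resting and 1343 and 1632 in activated wannabes, which overlapped (log2 fold change 0.62, edgeR adjusted p = 0.137). *Mvd*, the mevalonate decarboxylase, was the lowest of the 18 at −0.30 (edgeR adjusted p = 0.0710), with 1367, 1309 and 1228 and 1049 and 1062. *Sqle* had 2105, 2113 and 1842 and 1907 and 2711, and *Hmgcs1* 2182, 1969 and 2047 and 1432 and 2897, and both overlapped.

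Of the 5 regulators edgeR called 0, with 1 (*Srebf1*) at an unadjusted p under 0.05 and 0 by DESeq2. *Srebf1* had 3883, 4354 and 4229 normalized counts in resting and 4689.5 and 5106 in activated wannabes, without overlap (log2 fold change 0.24, edgeR adjusted p = 0.0933). *Srebf2*, with 9527, 9414 and 8672 and 7661 and 9892, and *Insig1*, with 1115, 1292 and 956 and 961 and 1193, overlapped between the groups (log2 fold changes −0.07 and −0.06). *Insig2* and *Scap* were at −0.11 and 0.08, and *Lpcat3* at −0.02.

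In all, 4 of the 37 genes were called higher and 3 lower in activated wannabes, beside the same 11.3% and 11.2% of all genes. Libraries did not overlap for 11 genes that were higher, against 27.9% of all genes, and for 6 that were lower, against 28.6%. The median log2 fold change of the 37 was 0.08. Activation also went with the proliferation markers, of which edgeR called 9 of 9 higher (median 2.15). Their summed normalized counts were 15259, 18390.2 and 15141 in resting and 51477 and 55030.4 in activated wannabes, with *Mcm2* the most abundant in the former, *Rrm2* in the latter and none at 0. Of the 3 B cell markers *Cd79b* was higher (log2 fold change 1.34, edgeR adjusted p = 0.00193). Their sums were 343, 338 and 287 in resting and 724 and 665 in activated wannabes, with *Cd79b* the most abundant in each library and none at 0.

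Other cell type markers were compared between resting and activated wannabes as well. All 4 myeloid markers tested were positive (median log2 fold change 1.22), and edgeR called 0 of them, with 1 (*Cd68*) at an unadjusted p under 0.05 and 0 by DESeq2. Their sums over 8 genes were 42.1, 142 and 156 normalized counts in resting and 276 and 158 in activated wannabes, with 3, 3 and 0 at 0 in the former and 3 and 3 in the latter. *Lyz2* or *Itgam* was the most abundant in resting and *Itgam* or *Cd68* in activated libraries. All 5 T cell markers were negative (median −0.13), with *Cd28* and *Cd3e* called lower (−0.84 and −0.29, edgeR adjusted p = 0.000871 and 0.0320). *Cd28* was called in all 5 fits that left out 1 library and *Cd3e* in 2 of them. Their sums were 107063, 117882 and 110501 in resting and 91093 and 92802 in activated wannabes, with *Cd3e* the most abundant and none at 0. The 2 CD8 T and NK cell markers tested were positive (median 0.43), and edgeR called 0 of them, with 0 at an unadjusted p under 0.05. Their sums over 4 genes were 388, 365 and 456 in resting and 538 and 524 in activated wannabes, without overlap. The 1 erythroid marker tested was positive (0.74) and not called by edgeR. Erythroid sums were 29.45, 45.9 and 544 in resting and 56.7 and 53.5 in activated wannabes. Of the 4 Treg markers 1 was positive and 3 were negative, with a median of −0.16 and values between −0.35 and 1.59. edgeR called 1 of them higher and 1 lower, where 11.3% and 11.2% of all genes were. The part of all these markers in the results was not tested.

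Of the 9 uptake genes tested in activated wannabes, edgeR called 5 lower and 1 higher, where it called 11.2% and 11.3% of all genes, with a median log2 fold change of −0.37. *Cd36*, a scavenger receptor that takes up fatty acids, had 127, 135 and 76.9 normalized counts in resting and 0 and 5.73 in activated wannabes. It was near 0 in both activated libraries, and fell by 5.25 on the log2 scale (standard error 0.84, edgeR adjusted p = 0.00792). It was called with any 1 library left out, at −9.81 without activated replicate 2, which leaves only the library at 0, and at −4.27 without activated replicate 1. The fatty acid transporters *Slc27a4* (−0.99) and *Slc27a1* (−0.86), the lysosomal lipase *Lipa* (−0.38) and the lysosomal sterol exporter *Npc1* (−0.37) were lower, and the lipoprotein receptor *Scarb1* was higher (0.65). In edgeR, these 5 lost their calls without activated replicate 1 (adjusted p between 0.0671 and 0.226) and without activated replicate 2 (adjusted p between 0.0619 and 0.189). Calls of edgeR were also lost without resting replicate 1 for *Npc1* and *Slc27a1* (adjusted p = 0.0820 and 0.0615), without resting replicate 2 for *Lipa*, *Npc1* and *Slc27a1* (0.0518, 0.0652 and 0.0502) and without resting replicate 3 for *Lipa* and *Scarb1* (0.0661 and 0.0522).

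Of 12 other synthesis and SREBP pathway genes tested, edgeR called *Mid1ip1*, which activates acetyl-CoA carboxylase, and the elongase *Elovl7* higher (0.86 and 1.86) and *Mbtps1*, the protease that first cuts SREBP, lower (−0.34). Their median was 0.19. Beside these counts, 11.3% of all genes were called higher and 11.2% lower. Of 6 triglyceride genes *Dgat2* and the lipase *Pnpla2* were higher (1.15 and 0.35). Of 9 genes of fatty acid oxidation tested *Acadl* and *Etfa* were higher (0.37 and 0.34) and *Acadm* lower (−0.57). Of 6 LXR and oxysterol genes edgeR called 0, with 0 at an unadjusted p under 0.05, 0 by DESeq2 and a median of −0.08. All 8 calls in this paragraph were lost in edgeR without activated replicate 1 (adjusted p between 0.0710 and 0.202) and without activated replicate 2 (adjusted p between 0.0912 and 0.222). Without resting replicate 1, edgeR also lost *Mbtps1*, *Elovl7*, *Dgat2*, *Pnpla2*, *Acadl* and *Etfa* (adjusted p between 0.0506 and 0.0832). Without resting replicate 2 it lost *Elovl7* and *Dgat2* (0.0773 and 0.0512), and without resting replicate 3 *Mbtps1*, *Pnpla2*, *Acadl* and *Etfa* (adjusted p between 0.0607 and 0.0872).

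**Figure D2:**
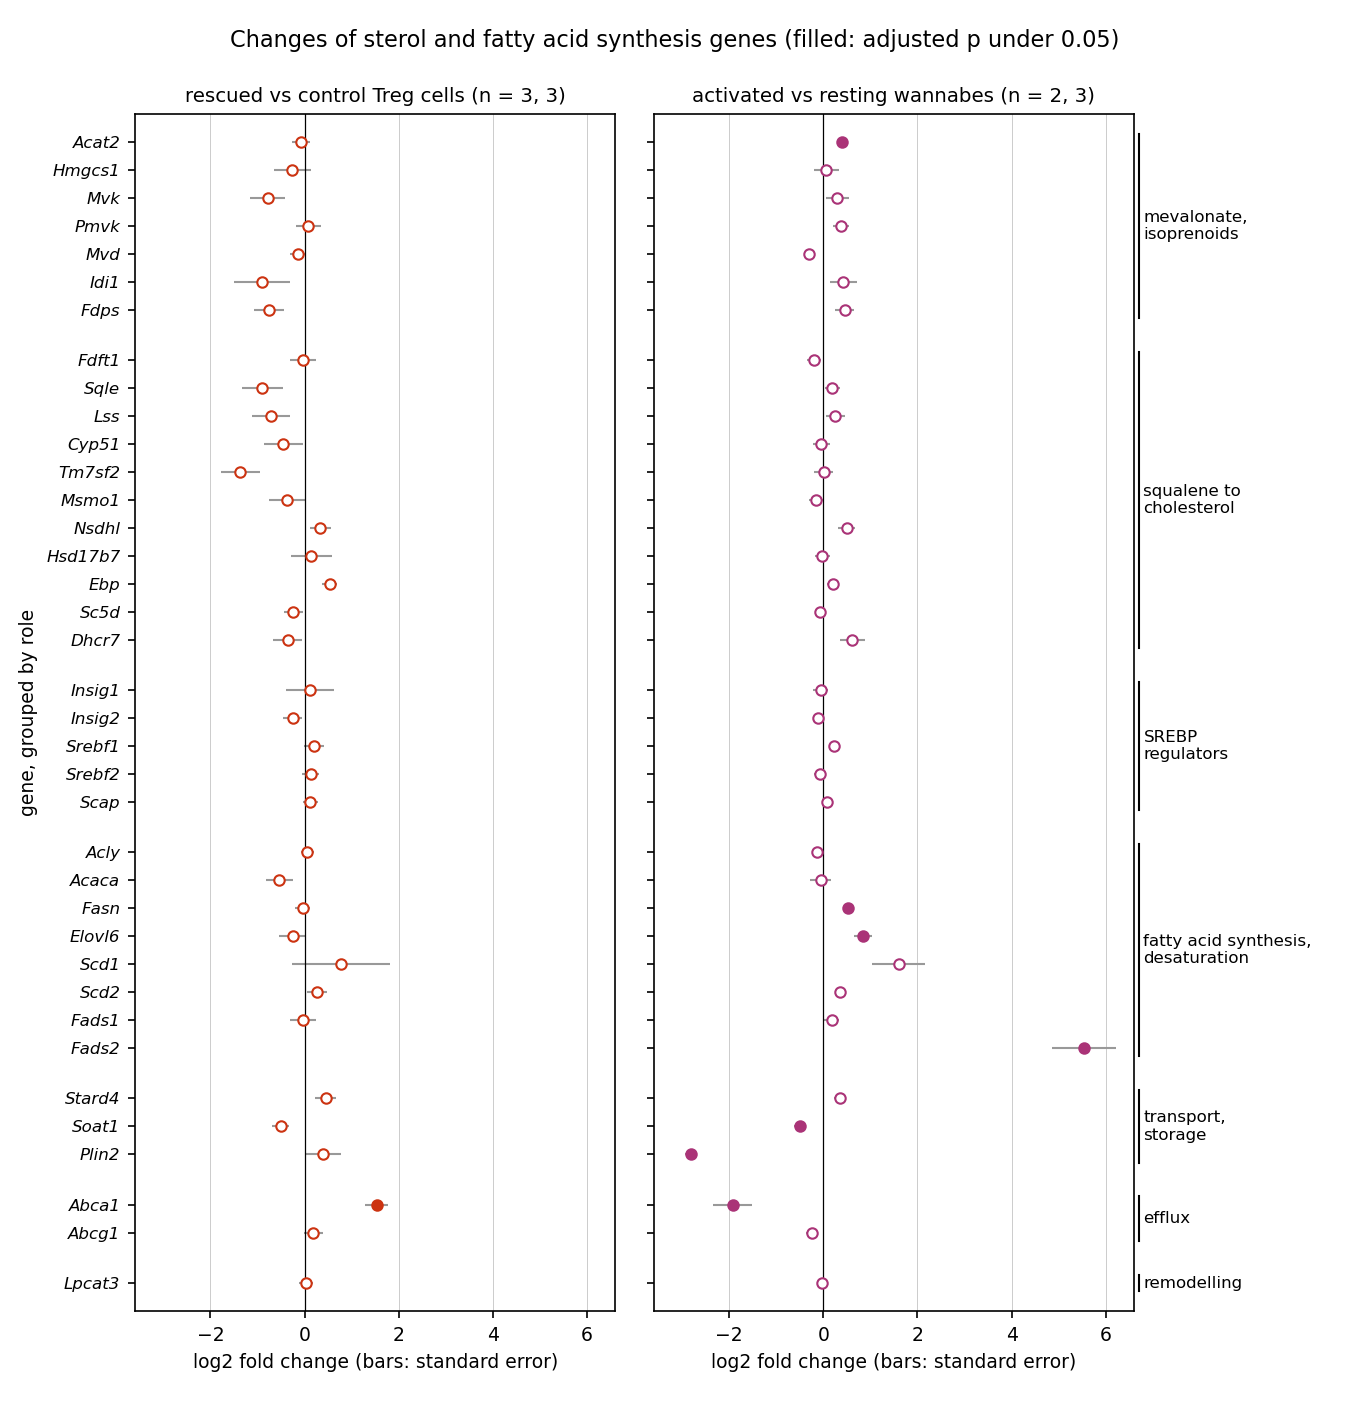
Log2 fold change of each of the 37 genes by role, with standard errors as bars, for rescued against control Treg cells (left) and activated against resting wannabes (right); filled points have an edgeR adjusted p under 0.05. *Abca1* lies at 1.53 on the left and −1.93 on the right, and *Fads2* was not tested on the left.

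The change on activation in wannabes was also tested against the change from control to rescued Treg cells, in a fit of all 13 libraries. *Abca1* and *Plin2* were the 2 of 37 genes lower in this difference, where 0.803% of the 15201 genes tested were lower. edgeR called 0 higher, against 0.730% of all genes, with 4 higher at an unadjusted p under 0.05 and 0 higher by DESeq2. For *Abca1*, which rose in rescued Treg cells and fell in activated wannabes, the difference was −3.47 on the log2 scale (standard error 0.48, edgeR adjusted p = 0.00328). It was called whichever 1 of the 13 libraries was left out. For *Plin2* the difference was −3.22 (standard error 0.54, edgeR adjusted p = 0.0121). It was not called by edgeR without activated replicate 1 (−3.22, adjusted p = 0.0772) or activated replicate 2 (−3.20, adjusted p = 0.0816). The difference compares changes made under different sexes, ages and drugs. In it edgeR called 0 of the proliferation, T cell, myeloid, B cell, CD8 T and NK cell and erythroid markers tested. Their medians were 1.61, −0.29, −1.78, 0.59, −1.51 and −4.75 in that order. At an unadjusted p under 0.05 in edgeR there were 7 of 9, 1 of 5, 0 of 5, 1 of 2, 0 of 4 and 2 of 4. Of the 4 Treg markers edgeR called 1 higher and 1 lower in the difference, and all 4 had an unadjusted p under 0.05. Their values lay between −2.55 and 2.00, with a median of −0.12. The part of all these markers in the difference was not tested. Among the 18 sterol steps edgeR called 0, with 2 at an unadjusted p under 0.05 and 0 by DESeq2, and the median difference was 0.36, beside 0.03 for all genes.

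In the groups of 3 libraries, 13 or more of the 18 sterol steps had their lowest value in the same library, a pattern that was described and not tested. Relative to the mean of the group on the log2 scale, the 18 genes had medians of 0.39, 0.09 and −0.53 in control replicates 1, 2 and 3, and of 0.32, −0.05 and −0.31 in rescued replicates 1, 2 and 3. Rescued replicate 1 was the highest of its group for 16 of the 18 genes, while it was the highest for 35.1% of all genes tested. Control replicate 1 was the highest for 12 and control replicate 3 the lowest for 14 of the 18, and control replicate 1 was the highest for 33.0% of all genes and control replicate 3 the lowest for 4622 of the 14925. *Idi1*, the isomerase that makes the reactive isoprenoid unit, had the largest coefficient of variation of the 18 in each male group, with 1482, 734 and 573 normalized counts in control, 883, 438 and 167 in rescued and 859 and 252 in wannabe libraries. Resting replicate 3 was the lowest of its group for 13 of the 18 (4250 of 13166 genes tested) and rescued replicate 3 for 13 (5344 of 14925). Where a group has 2 libraries, 1 of them is always the higher for at least 9 of 18 genes, and this was activated replicate 2 for 14 (50.3% of all genes) and male wannabe replicate 1 for 12 (47.2%). In male wannabes the medians were 0.13 and −0.13, in resting wannabes 0.07, 0.05 and −0.11, and in activated wannabes −0.21 and 0.21.

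The median coefficient of variation of the sterol steps between replicates was 34.9% in control and 23.3% in rescued Treg cells, beside 20.04% and 22.9% for all genes tested. In male wannabes it was 17.1%, beside 27.1%. In resting and activated wannabes it was 11.0% and 20.3%, beside 11.6% and 6.56%. The proliferation markers, on the same scale, had medians of 0.18, −0.99 and 0.75 in control replicates 1, 2 and 3, so the control library with the lowest sterol steps had the highest proliferation markers. In rescued replicates 1, 2 and 3 they were 0.47, −0.35 and −0.16, with the same library highest for both lists. The fatty acid genes varied less in control Treg cells, at a median coefficient of variation of 11.96%.

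**Figure D3:**
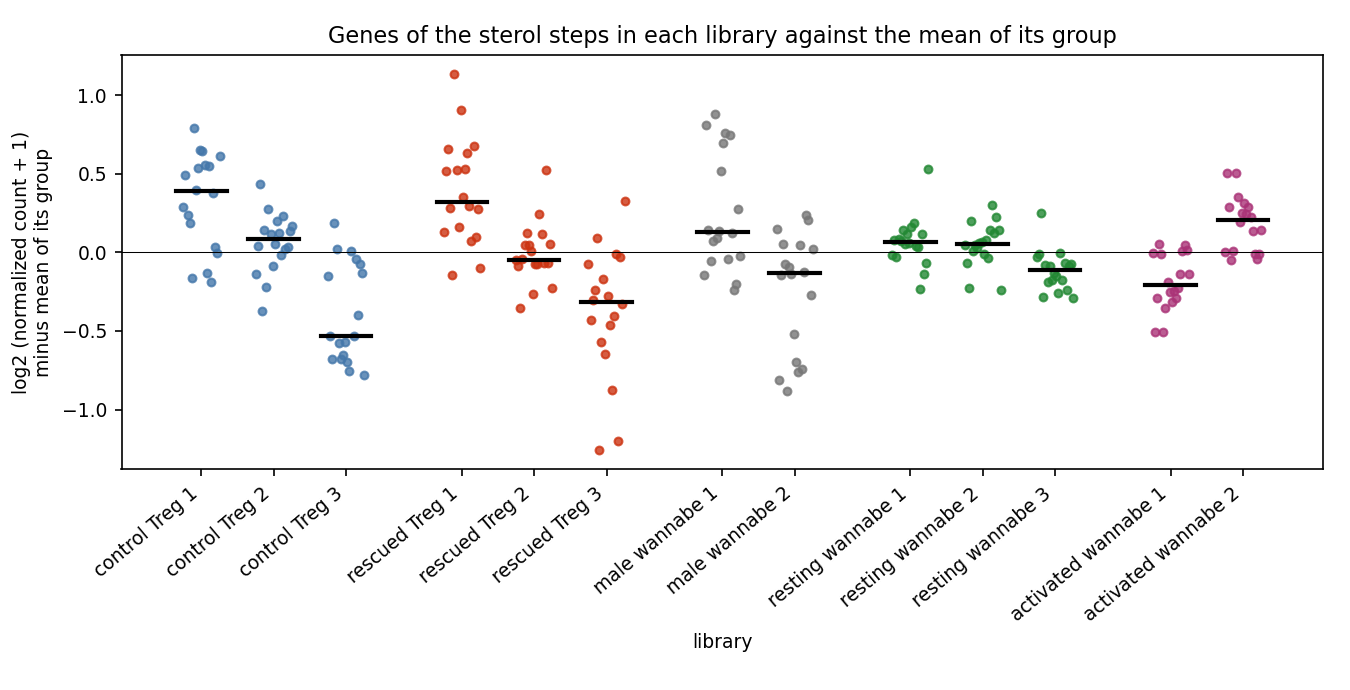
Log2 normalized count plus 1 of each sterol step gene in each library minus the mean of its group, with points for genes and black lines for the median of the 18 genes. Control replicate 3 and rescued replicate 3 lie below their group means, at medians of −0.53 and −0.31.

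Promoter sequences from RefSeq (GRCm38.p6) were matched for 29 of the 37 genes, which have 37 promoters in the table, and were searched on both strands over the 250 bases before each start of transcription. The missing genes are *Fdps*, *Fdft1*, *Sqle*, *Scd1*, *Scd2*, *Fads1*, *Stard4* and *Abcg1*. The letters TCACNCCAC, known from sterol regulatory elements that SREBP binds, were in the promoter of 1 of the 29 genes, *Hmgcs1*, against 1.22% of all 27025 genes with a promoter (331 genes). By promoter, the letters were in 346 of 32851, or 1.05%. The letters CCAAT, of the box bound by NF-Y, were in promoters of 22 of the 29 genes (75.9%), against 37.5% of all genes. By promoter, the shares for CCAAT were 62.2% of the 37 and 33.8% of all. The letters CACGTG, an E-box, were in 6 of the 29 (20.7%), against 6.86% of all genes. Exact letters alone were searched, so sterol elements with other letters would be missed. *Hmgcs1*, the synthase of the mevalonate route, is the 1 gene of the 29 with the letters TCACNCCAC. The promoters of *Hmgcs1*, *Insig1* and *Abca1* are shown, as genes whose levels are described above, with matches of the letters searched in capitals. CCAAT on the opposite strand reads ATTGG. They lie at chr13:119690101-119690350 (plus strand), chr5:28071162-28071411 (plus strand) and chr4:53159896-53160145 (minus strand), and are written 5′ to 3′. The start of *Insig1* differs between RefSeq and GENCODE, so the end of its printed promoter lies inside the gene as placed above.
Hmgcs1: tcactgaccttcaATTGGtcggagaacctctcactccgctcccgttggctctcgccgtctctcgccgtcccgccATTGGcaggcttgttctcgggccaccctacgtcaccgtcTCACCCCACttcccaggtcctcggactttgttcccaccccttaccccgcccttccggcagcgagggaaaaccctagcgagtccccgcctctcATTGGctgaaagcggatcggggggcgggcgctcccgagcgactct
Insig1: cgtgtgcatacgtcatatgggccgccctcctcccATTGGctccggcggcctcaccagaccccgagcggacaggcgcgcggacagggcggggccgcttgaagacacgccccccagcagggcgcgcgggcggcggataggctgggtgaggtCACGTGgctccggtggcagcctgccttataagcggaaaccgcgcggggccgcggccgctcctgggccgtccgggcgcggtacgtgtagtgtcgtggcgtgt
Abca1: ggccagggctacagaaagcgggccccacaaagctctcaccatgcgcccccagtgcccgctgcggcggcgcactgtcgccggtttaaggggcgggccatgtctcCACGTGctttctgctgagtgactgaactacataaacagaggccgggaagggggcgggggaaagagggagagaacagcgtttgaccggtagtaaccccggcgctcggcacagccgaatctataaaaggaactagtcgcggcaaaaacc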

How the data were processed

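RNA was measured in 13 libraries of sorted T cells, 8 male and 5 female. The deposited values are raw read counts per gene symbol; the authors amplified RNA with a SMART-Seq v4 kit, aligned reads with STAR 2.7.3a to GRCm38 and counted them in R. The gene annotation and strand setting of the counting were not given. Male libraries were assigned to rescued Treg cells or wannabes by the reporter they were sorted on, using the sort gates in the study's methods. For the female libraries the labels and methods give 3 resting and 2 activated, which were used, while the series' own summary of the design gives the reverse. Of 24421 lines in each table, 4 had no usable gene name and held between 0.00353% and 0.00841% of the counts, and the other 24417 were used.

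Counts were fitted in R 4.3.3 with edgeR 4.0.16 (TMM normalization, its filter on low counts, quasi-likelihood F test) in a fit of the 8 male libraries, a fit of the 5 female libraries, and a fit of all 13 for the difference of changes. Adjusted p are Benjamini-Hochberg values over all genes tested, called at 0.05. DESeq2 1.42.0, its size factors in edgeR, no filter, a replicate block, only the 2 groups compared, and leaving out each library in turn were the alternatives, chosen before the counts were fitted here. The fits were tested on simulated data. The 37 genes and the lists around them were chosen with earlier results of these data known. From these lists, 2 genes outside the 37 were later left out, and the counts, medians and sums were computed without them.

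By a rule set in advance, library values were given for each of the 37 genes called between rescued and control Treg cells or between activated and resting wannabes, and for *Abca1*, *Abcg1*, *Plin2*, *Soat1*, *Insig1*, *Srebf1*, *Srebf2*, *Scd1*, *Scd2*, *Fasn*, *Hmgcs1* and *Sqle*. Genes called against male wannabes were given by fold change, the rest by counts and ranges. Outside this rule, *Tm7sf2*, *Ebp*, *Stard4*, *Insig2*, *Idi1*, *Dhcr7*, *Mvd*, *Acat3*, *Cd36*, *Fabp5*, *Cd68* and *Itgam* were given by library after their values were seen. *Foxp3* was given by library for the male groups as a marker.

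Depth lay between 25558402 and 36660933 counts per library. A gene with 3 counts or fewer in a library was taken as not distinguishable from absent there, a floor that covers counting error only, as the reads carried no molecular identifiers and were amplified. Between replicates, edgeR estimated a common biological coefficient of variation of 0.510 (male fit) and 0.171 (female fit). Levels were divided by exon length (GENCODE M21) where genes were compared. The male and female libraries were not compared in level, because sex, age and drug differ.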

Additional observations from a re-analysis of the deposited data

Results flagged for a closer look

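For 2 genes the change on activation in female wannabes differed from the change between rescued and control male Treg cells when the difference itself was tested. *Abca1* was higher in rescued Treg cells (log2 fold change 1.53) and lower in activated wannabes (−1.93), and the difference was −3.47 (edgeR adjusted p = 0.00328). *Plin2* was not called in rescued Treg cells (0.39) and was lower in activated wannabes (−2.81), and the difference was −3.22 (edgeR adjusted p = 0.0121). Without activated replicate 1 or 2 the difference for *Plin2* was −3.22 or −3.20 and was not called (edgeR adjusted p = 0.0772 and 0.0816). Sex, age, drug and *Foxp3* allele differ between the experiments.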

How the results depend on the processing

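The number of genes called depended on the test. DESeq2 called 1195 genes between rescued and control Treg cells where edgeR called 343, 3316 for 2105 between rescued Treg cells and male wannabes, 3751 for 2416 between control Treg cells and male wannabes, and 792 for 233 in the difference of changes. Between rescued and control Treg cells no filter gave 612 and only the 2 groups in the fit 580 genes. Leaving out 1 library at a time gave between 114 and 598 genes there, between 1549 and 2423 between control Treg cells and male wannabes, between 751 and 3215 between activated and resting wannabes (2958 with all), and between 44 and 430 in the difference. A group left with 1 library is assumed to vary like the others.

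Of the 37 genes, DESeq2 called 2 higher and 1 lower between rescued and control Treg cells (edgeR 1 and 0), where only the 2 groups gave 2 higher and a replicate block, which pairs libraries by their number, gave 1 lower (*Sqle*, −0.97, edgeR adjusted p = 0.0276). Correlations between libraries of the same number in different groups lay between −0.029 and 0.084. DESeq2 called 2 higher and 4 lower between rescued Treg cells and wannabes (edgeR 1 and 3). Between activated and resting wannabes it called 5 higher and 4 lower (edgeR 4 and 3). Between control Treg cells and wannabes it called 2 higher and 6 lower (edgeR 1 and 3), where a replicate block gave 3 higher. Leaving out 1 library gave 0 to 2 higher and 2 to 4 lower between rescued Treg cells and wannabes, 0 to 1 higher and 2 to 5 lower between control Treg cells and wannabes, 2 to 6 higher and 1 to 3 lower between activated and resting wannabes, and 1 to 2 lower in the difference. For the genes of the 37 named by the rule set in advance, in the comparisons where it names them, 163 of the values under the other alternatives kept direction and call, 3 lost and 2 (*Sqle* above and *Scd2* by DESeq2) gained a call. Other calls of DESeq2, such as *Ebp* or *Abca1* against wannabes, fall outside these values and are in the counts above. The 3 lost were *Acat2* and *Soat1* between activated and resting wannabes under a replicate block (edgeR adjusted p = 0.0683 and 0.101) and *Soat1* with no filter (0.0510). With 1 library left out, 236 kept and 25 lost it, and none reversed. The cause was not tested.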
